A study of Homo sapiens with 16 samples.

Results

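Integrins are adhesion receptors built from 1 alpha and 1 beta chain, and the ICAMs are immunoglobulin-family surface proteins to which the leukocyte integrins bind. The 10 genes described here were taken by symbol from GENCODE release 29, 10 of 58295 genes in the files: the alpha chains ITGA4, ITGA5, ITGA6, ITGAL and ITGAE, the beta chains ITGB1, ITGB2 and ITGB7, and the ligands ICAM2 and ICAM3. On T cells, ITGAL pairs with ITGB2 as LFA-1, which binds the ICAMs at the contact with another cell, whereas ITGA4, ITGA5 and ITGA6 pair with ITGB1 to bind vascular ligands, fibronectin and laminin. ITGB7 pairs with ITGA4 in gut-homing lymphocytes and with ITGAE in T cells held in epithelia, where ITGAE binds E-cadherin. Integrins are held inactive at the surface until signals inside the cell open them, so a transcript level is not a level of adhesion.

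The cells were JSL1, a clone of Jurkat, an established line of human leukemic T cells, grown for 48 h in medium alone (unstimulated) or with 20 ng/mL of PMA (phorbol 12-myristate 13-acetate), which switches on protein kinase C downstream of the T cell receptor. The labels give this time for all libraries, while the design text of the series counts unstimulated cells as time 0. The wild type (WT) was compared with 2 lines edited by CRISPR-Cas9 at exon 9 of HDAC7, a class IIa histone deacetylase. These were iE9, labelled an E9 knock-in, and dE9, labelled an E9 knock-out. By label, HDAC7 carries the peptide of this exon in iE9 and lacks it in dE9, while the measured shares are given below. The comparisons ask how expression differs with PMA in each line and between lines at the same treatment. There were 2 WT, 3 dE9 and 3 iE9 libraries per treatment, 16 in all. The labels do not say whether an edited line is 1 clone or whether the libraries came from separate cultures, so the p-values measure the spread between these libraries, which may be technical.

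Each library held 14536537 to 21888896 estimated counts of polyadenylated RNA. The share of HDAC7 transcripts that hold exon 9 was 46.6% to 47.5% in unstimulated WT libraries, 0.841% to 7.37% in dE9 and 51.8% to 74.8% in iE9. With PMA it was 43.1% to 53.8% in WT, 0% to 0.678% in dE9 and 42.3% to 63.0% in iE9, so that the iE9 and WT libraries overlapped; iE9 below stands for the libraries labelled so. The 10 T cell markers were above 0 in every library and summed to 3020 to 10200 TPM (transcript abundance scaled for length and depth), while markers of other lineages were mixed. Some T cell markers were low in part of the libraries, with CD2 at 0.0539 to 27.7 TPM, CD28 at 2.03 to 411 TPM and TRAC at 4.61 to 1150 TPM. PF4 was at 0 in 16 libraries, CDH1 in 15, HBB and EPCAM in 14 and VWF in 12, whereas HBA1 reached 52.0 TPM, S100A9 25.1 TPM, PECAM1 7.08 to 69.6 TPM and CD79A 8.31 to 538 TPM, and KRT8, ITGA2B, GP1BA and COL1A1 were above 0 in every library at 2.89, 4.1, 5.19 and 7.73 TPM at most. The iE9 libraries numbered 1 stood apart in the share of mitochondrial counts, 9.174% unstimulated and 12.81% with PMA, against 3.003% to 6.394% in the other libraries.

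In unstimulated WT cells ITGA4 had the highest level per transcript length of the 10 genes, at 138 ± 5.95 TPM (SD, n = 2). ITGAE followed at 75.6 ± 11.7 TPM, nearly all of it from short transcripts described further on, then ITGB1 at 67.3 ± 0.661, ICAM2 at 58.3 ± 2.24, ICAM3 at 48.1 ± 9.54 and ITGB2 at 44.2 ± 4.81 TPM. ITGAL at 9.29 ± 4.57, ITGA5 at 7.20 ± 3.00 and ITGA6 at 5.46 ± 0.0398 TPM were low, and ITGB7 had 0 counts in both libraries. ITGA4 stood above every other gene in both libraries, whereas the libraries of ITGAE and ITGB1 overlapped, as did those of ICAM3 and ITGB2, of ITGAL and ITGA5, and of ITGA5 and ITGA6. With PMA, ICAM3 at 190 ± 13.8 TPM and ITGA4 at 163 ± 24.4 TPM were the highest in WT, followed by ITGB2 at 137 ± 16.4 and ITGB1 at 112 ± 27.8 TPM. The ITGA4 libraries (146 to 180 TPM) overlapped those of ITGB2 (126 to 149 TPM), which overlapped those of ITGB1 (92.2 to 132 TPM).

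**Figure D1:**
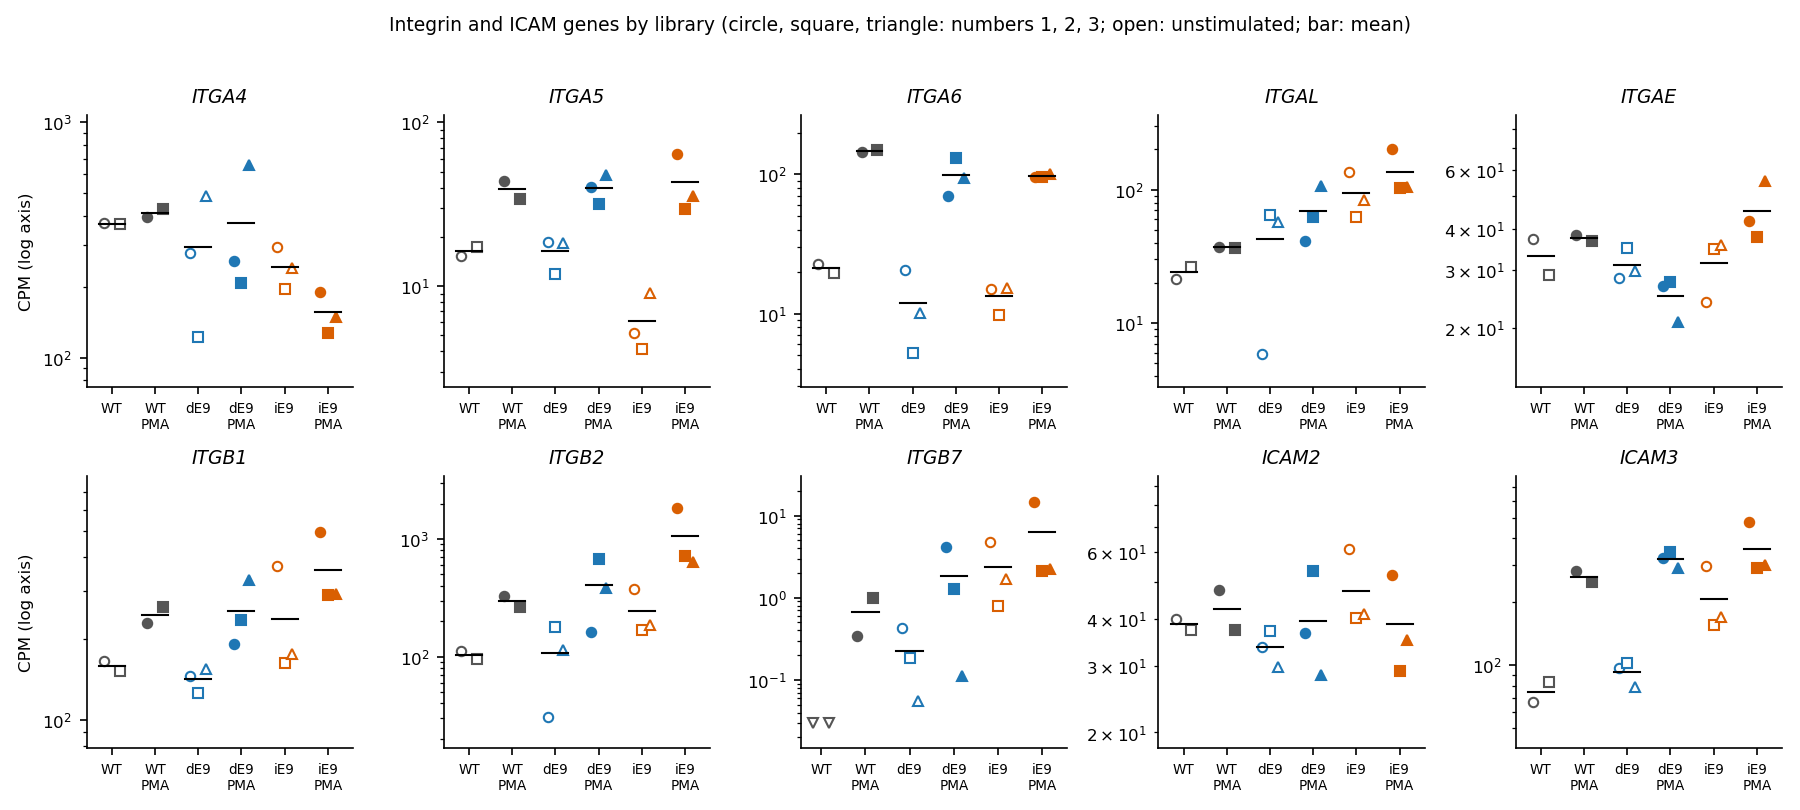
CPM (counts scaled to a common library size with TMM factors, log axes) of the 10 genes in each of the 16 libraries; open symbols are unstimulated and filled symbols PMA, the shape gives the replicate number, bars are group means and open triangles pointing down for ITGB7 mark libraries with 0 counts, drawn at the foot of the axis. ITGA5, ITGA6 and ICAM3 move up with PMA in every line, while ITGA4 and ITGAL spread widely among dE9 libraries.

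With PMA, 3 of the 10 genes rose in WT (11.1% of all 18073 genes tested were called higher), 5 rose in dE9 (17.1%) and 4 rose in iE9 (12.6%), and 0 fell in any line (11.3%, 16.5% and 14.4%). By edgeR 4, 6 and 5 of the 10 genes had an unadjusted p under 0.05 (35.9%, 43.3% and 38.9% of all genes). DESeq2 called 4, 6 and 5 of the 10, and 4842, 6587 and 5493 genes over the whole data. These counts come from the fit without pairing. With same-numbered libraries paired within each line, WT included, 7 genes rose in dE9 (45.2% of all genes called in either direction). In iE9 7 rose and 1, ITGA4, fell (39.8%). ITGA5, ITGA6 and ICAM3 rose in all 3 lines, as did 7.62% of all genes tested, ITGB2 rose in dE9 and iE9, and ITGB1 rose in dE9. Here a gene is said to have risen or fallen where the quasi-likelihood F test of edgeR gave a Benjamini-Hochberg adjusted p under 0.05 over all genes tested. The median log2 fold change of the 10 genes was 0.94 in WT, 1.06 in dE9 and 0.69 in iE9, against 0.03, 0.06 and -0.01 over all genes. The libraries of both treatments did not overlap for 8 of the 10 genes in WT (73.3% of all genes, with 2 libraries a group), 5 in dE9 (45.1%) and 5 in iE9 (41.3%). All 10 genes passed the filter on low counts, ITGB7 through groups other than unstimulated WT. In these bulk samples, fewer cells that express a gene and less RNA per cell cannot be told apart.

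ITGA6 (chr2:172427354-172506282, plus strand, hg38), the alpha chain of the laminin receptor, had the widest change with PMA of the called genes in WT and dE9. In iE9 it was also the widest, within a standard error of ITGA5 (log2 2.88 and 2.83). It stood at 22.5 and 19.6 CPM in unstimulated WT libraries and at 146 and 149.6 CPM with PMA. In dE9 it went from 20.5, 5.23 and 10.1 CPM to 69.5, 132 and 94.3 CPM, and in iE9 from 14.9, 9.81 and 15.2 CPM to 96.5, 95.6 and 101 CPM. Every PMA library was above every unstimulated library, also across lines. The log2 fold change was 2.81 ± 0.46 (SE, adjusted p = 0.000837) in WT, 3.05 ± 0.38 (adjusted p = 4.78e-05) in dE9 and 2.88 ± 0.37 (adjusted p = 9.24e-05) in iE9. The change did not pass a test of difference between lines, with iE9 minus dE9 at -0.18 ± 0.50 (adjusted p = 0.98).

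ITGA5 (chr12:54395261-54419460, minus strand), the alpha chain of the classical fibronectin receptor, rose 2.39-fold in WT (log2 1.26 ± 0.39, adjusted p = 0.0311), 2.45-fold in dE9 (1.29 ± 0.32, adjusted p = 0.00602) and 7.10-fold in iE9 (2.83 ± 0.34, adjusted p = 5.11e-05). WT libraries went from 15.3 and 17.3 CPM to 43.7 and 34.3 CPM. In dE9 the values were 18.7, 11.9 and 18.4 CPM unstimulated and 40.3, 31.6 and 47.9 CPM with PMA, and in iE9 they were 5.16, 4.14 and 9.05 CPM and then 64.1, 29.8 and 35.6 CPM. The PMA ranges of the lines overlapped, and the iE9 libraries started lowest. The larger rise in iE9 did not pass the test of the difference, at 1.54 ± 0.45 against dE9 (adjusted p = 0.417) and 1.57 ± 0.50 against WT (adjusted p = 0.639). The WT call was lost when any 1 of the 4 WT libraries was left out, with adjusted p from 0.0715 to 0.177.

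ICAM3 (chr19:10333776-10339823, minus strand), an LFA-1 ligand that resting leukocytes carry at high level, rose in the 3 lines, from a higher starting level in iE9. It went from 66.6 and 83.1 CPM to 279 and 248 CPM in WT, and from 97.1, 103 and 78.3 CPM to 323, 345 and 289.7 CPM in dE9. In iE9 the libraries stood at 294, 156 and 169 CPM unstimulated and at 476, 290.3 and 299 CPM with PMA, so the groups overlapped through the library numbered 1. The log2 fold change was 1.82 ± 0.31 (adjusted p = 0.00115) in WT, 1.78 ± 0.25 (adjusted p = 0.000129) in dE9 and 0.78 ± 0.25 (adjusted p = 0.0282) in iE9. The iE9 call was lost without any of 3 libraries, unstimulated 2 or 3 or PMA 1, where the adjusted p reached 0.136, and held without both iE9 libraries numbered 1, at 0.87 ± 0.16 (adjusted p = 0.00204). The difference of the iE9 and dE9 responses was -1.0 ± 0.35 (adjusted p = 0.54), and it passed once same-numbered libraries of a line were paired, at -0.98 ± 0.15 (adjusted p = 0.0437). An antisense gene, AC114271.1, shares 2101 exon bases with ICAM3 and, since the strand of the libraries is not given in the sources used here, its reads cannot be told apart in that stretch; it averaged 6.77 TPM against 156 TPM for ICAM3 and fell in WT (log2 -0.90 ± 0.28, adjusted p = 0.031) and in dE9 (-1.05 ± 0.23, adjusted p = 0.00267).

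The promoters of the 3 genes called in all lines were read because these genes rose together. Each window was the 250 bases before a RefSeq start site (GRCh38.p14), the listed one closest to the start of the main transcript, at a distance of 31 bases for ITGA6 (chr2:172427336-172427585), 194 for ITGA5 (chr12:54419267-54419516) and 199 for ICAM3 (chr19:10339625-10339874), so that the windows can hold transcribed bases. Matches on either strand were counted for the motifs TGANTCA (AP-1), TGTGGT (RUNX), CCGGAA (ETS) and GGGCGG (SP1). The ITGA6 window held 1 RUNX, 1 ETS and 3 SP1 matches, the ITGA5 window 1 SP1 match, and the ICAM3 window 0 matches. Of 35116 promoters of this length, 6.57% hold the AP-1 motif, 11% RUNX, 14.5% ETS and 42.6% SP1. None of the windows of the 7 members with an entry held the AP-1 motif, which says only that these letters are not in these windows. ITGA6 and ITGA5 were GC-rich at 71.6% and 70% and ICAM3 at 66%, against a median of 58.0% over all promoters.

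**Figure D2:**
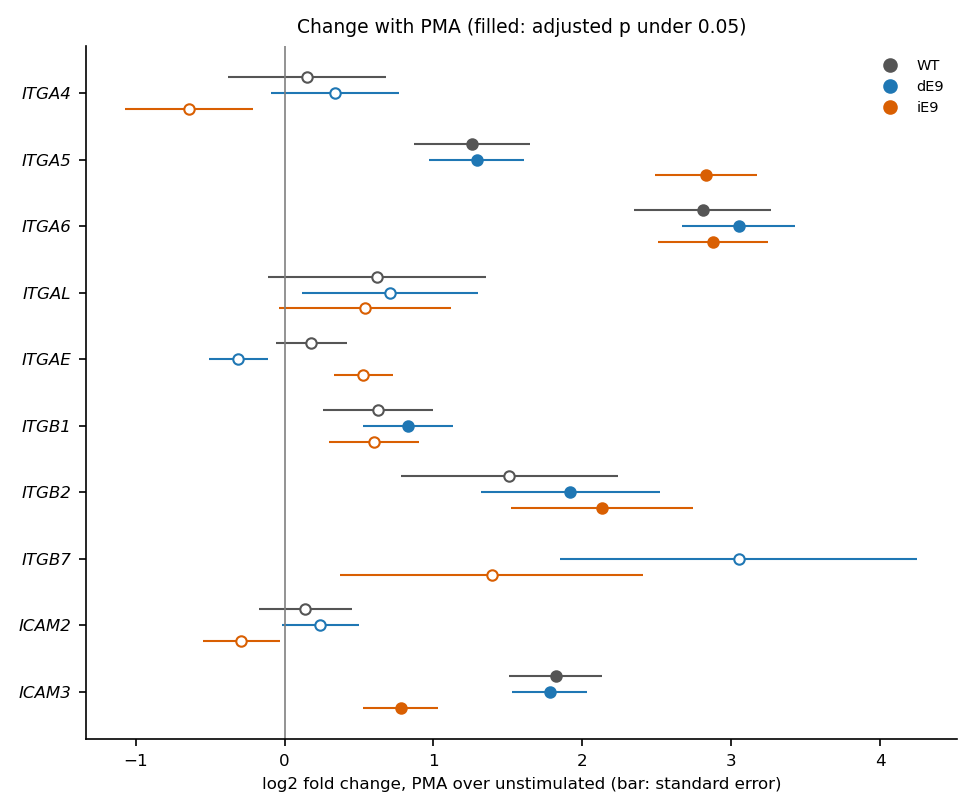
Log2 fold change with PMA (horizontal axis, bars are standard errors) for each gene in WT, dE9 and iE9, filled where the adjusted p was under 0.05. ITGA6 lies near 3 in all lines, and ITGA5 lies further right in iE9 (2.83) than in WT (1.26) or dE9 (1.29). ITGB7 in WT is not drawn because its unstimulated libraries had 0 counts.

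Among the beta chains, ITGB2 (chr21:44885953-44931989, minus strand), the common chain of leukocyte integrins, rose with PMA in the edited lines by about the same factor in every numbered pair. It went from 30.6, 179 and 114 CPM to 163, 677 and 382 CPM in dE9, ratios of 5.31, 3.79 and 3.36 for libraries 1, 2 and 3. In iE9 it went from 377, 169 and 188 CPM to 1851, 722 and 637 CPM, ratios of 4.91, 4.27 and 3.40. The unstimulated levels spread 5.84-fold in dE9, where the libraries kept their order with PMA, while in iE9 libraries 2 and 3 changed places. The log2 fold change was 1.92 ± 0.60 (adjusted p = 0.0238) in dE9 and 2.13 ± 0.61 (adjusted p = 0.0177) in iE9, and with the pairing 2.02 ± 0.14 (adjusted p = 1e-05) and 2.05 ± 0.14 (adjusted p = 1.06e-05). In WT, ITGB2 stood at 112 and 95.5 CPM and then at 325 and 265 CPM, a change of 1.51 ± 0.73 that did not pass (adjusted p = 0.153). Without pairing, the dE9 call was lost without dE9 unstimulated 1 or 3 or PMA 2 (adjusted p up to 0.113), and the iE9 call without unstimulated 2 or 3 or PMA 1 (up to 0.0943) and without both iE9 libraries numbered 1 (0.0545). ITGB2-AS1, which shares 303 exon bases with ITGB2 on the opposite strand, also rose in all 3 lines, by log2 3.52 ± 1.09 (adjusted p = 0.0308) in WT, 4.05 ± 0.88 (0.00268) in dE9 and 4.69 ± 0.88 (0.00141) in iE9.

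ITGB1 (chr10:32900319-33005792, minus strand), the partner of the matrix-binding alpha chains, rose 1.78-fold in dE9, from 146, 126 and 154 CPM to 192, 234 and 330.3 CPM (log2 0.83 ± 0.30, adjusted p = 0.0471). That call was lost without any of 5 of the 6 dE9 libraries, all but PMA 1 (adjusted p up to 0.184), and stood with the pairing (0.80 ± 0.14, adjusted p = 0.00152). In WT the values were 165 and 152 CPM and then 229 and 262 CPM (0.63 ± 0.37, adjusted p = 0.242). In iE9 they were 371, 163 and 176 CPM and then 496, 289 and 293 CPM. All 3 numbered iE9 pairs were higher with PMA, and the change passed with the pairing (0.66 ± 0.14, adjusted p = 0.00492) and not without it (0.60 ± 0.30, adjusted p = 0.155).

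ITGB7 (chr12:53191318-53207307, minus strand) was the scarcest of the 10 genes, with 0 counts in both unstimulated WT libraries and 6 and 18 counts with PMA. Its mean of 0.665 CPM in WT with PMA was at least 3.51-fold higher than the 0.189 CPM that a floor of 3 counts per library allows. In dE9 it stood at 0.431, 0.187 and 0.0565 CPM and then at 4.18, 1.29 and 0.113 CPM, and in iE9 at 4.72, 0.787 and 1.67 CPM and then at 14.7, 2.09 and 2.21 CPM. Every numbered pair was higher with PMA, by 1.32 to 9.70 times in the edited lines. The change passed with the pairing in dE9 (log2 2.80 ± 0.54, adjusted p = 0.00298) and iE9 (1.17 ± 0.41, adjusted p = 0.0487) and not without it (3.05 ± 1.20, adjusted p = 0.0664, and 1.39 ± 1.02, adjusted p = 0.337). ITGB7 shares 1886 exon bases with ZNF740 on the opposite strand, which averaged 20.3 TPM against 1.51 TPM for ITGB7 and had no call in any line (log2 -0.09 ± 0.17, 0.17 ± 0.14 and 0.35 ± 0.14).

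ITGB2 took a larger part of the beta chain transcripts after PMA. Of the summed TPM of ITGB1, ITGB2 and ITGB7, ITGB2 made up 39.5% ± 2.33 (SD, n = 2) in unstimulated and 55.2% ± 9.05 in PMA-treated WT libraries. In dE9 the share was 36.6% ± 18.8 and 58.5% ± 13.0 (n = 3), with overlapping ranges of 16.2% to 53.3% and 49.9% to 73.5%. In iE9 it was 51.4% ± 1.12 and 71.4% ± 4.99 (n = 3), from at most 52.4% to at least 67.5%. ITGB7 made up 1.55% at most of the beta chain TPM in any library. These shares have no test of their own.

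**Figure D3:**
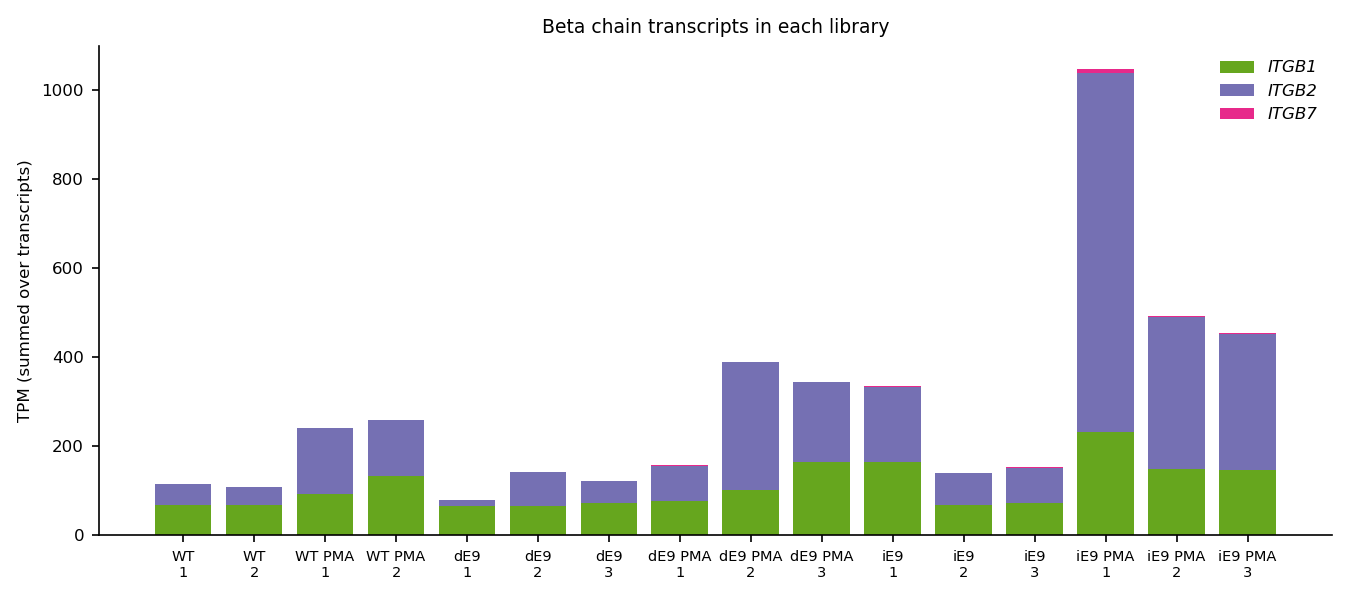
Stacked TPM of ITGB1, ITGB2 and ITGB7 in each library, by group and replicate number. The ITGB2 part grows with PMA in every line, and the iE9 PMA library numbered 1 reaches 807 TPM of ITGB2 against 343 and 306 TPM in the other iE9 PMA libraries.

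The alpha chains ITGA4 and ITGAL had no call with PMA in any line in the test without pairing. ITGA4 (chr2:181457202-181536187, plus strand), whose heterodimers bind VCAM1 and fibronectin, stood at 371 and 368 CPM in WT and at 395 and 426 CPM with PMA (log2 0.15 ± 0.53, adjusted p = 0.87). In dE9 it ranged from 122 to 485 CPM unstimulated and from 208 to 654 CPM with PMA, and libraries 2, 1 and 3 kept that order in both treatments (0.34 ± 0.43, adjusted p = 0.58). In iE9 it went from 294, 196 and 239 CPM to 190.3, 128 and 149 CPM, ratios of 0.648, 0.651 and 0.623. That fall passed with the pairing (-0.64 ± 0.14, adjusted p = 0.00545) and not without it (-0.64 ± 0.43, adjusted p = 0.295). The difference of the iE9 and dE9 responses was -0.98 ± 0.61 (adjusted p = 0.814), and with the pairing -1.01 ± 0.20 (adjusted p = 0.0707).

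ITGAL (chr16:30472658-30523185, plus strand), the alpha chain of LFA-1, was at 21.5 and 26.5 CPM in WT and at 36.9 and 36.8 CPM with PMA (log2 0.62 ± 0.73, adjusted p = 0.579). In dE9 library 1 went from 5.92 to 41 CPM, library 2 from 64.2 to 62.0 CPM and library 3 from 56.9 to 106 CPM, and in iE9 the libraries went from 136, 62.4 and 83.0 CPM to 201, 103 and 104 CPM. The unstimulated dE9 library 1 was 10.8 times below the highest of its group, and the same library had the lowest ITGB2 of the 16. With the pairing the dE9 change passed (1.11 ± 0.40, adjusted p = 0.0473), and the iE9 change did not (0.54 ± 0.37, adjusted p = 0.284). Per transcript length, ITGAL made up 30.1% ± 2.71 of the summed TPM of ITGA4, ITGA5, ITGA6 and ITGAL in unstimulated iE9 libraries (n = 3) and 5.70% ± 2.37 in WT (n = 2), and ITGA4 made up 64.5% ± 2.60 and 86.5% ± 3.61. Unstimulated dE9 libraries overlapped those of iE9 in both shares. ITGAL ranged from 1.54% to 31.4% in dE9 and from 27.5% to 32.9% in iE9, and ITGA4 from 58.5% to 83.6% and from 62.9% to 67.5%. With PMA, ITGA4 took 34.2% ± 2.18 of this sum in iE9, 65.0% ± 2.12 in WT and 62.2% ± 14.7 in dE9.

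ICAM2 (chr17:64002594-64020634, minus strand), the other LFA-1 ligand among the members, had no call with PMA. It stood at 37.3 to 40.0 CPM in WT, 29.8 to 37.2 in dE9 and 40.3 to 61.1 in iE9, and with PMA at 37.3 to 47.7, 28.3 to 53.6 and 29.1 to 52.2 CPM. The groups overlapped in each line, and the log2 changes were 0.14 ± 0.31, 0.24 ± 0.26 and -0.29 ± 0.26 (adjusted p = 0.795, 0.511 and 0.428). PRR29 overlaps ICAM2 on the opposite strand over 869 exon bases, averaged 6.46 TPM against 61.4 TPM, and had no call with PMA.

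The ITGAE gene (chr17:3714628-3801243, minus strand), whose protein is the integrin alpha chain CD103, was covered mostly at its 3′ end. Its 4 short transcripts held 73.0% to 99.5% of the gene's TPM in the 16 libraries, led by ITGAE-207, a processed transcript of 672 bases annotated as without a coding sequence, with 4 exons of which 3 belong to the full-length ITGAE-201 (31 exons, 3858 bases). ITGAE-207 made up 75.1% of the mean TPM of ITGAE. HASPIN, a histone kinase gene on the opposite strand, shares 427 exon bases with ITGAE. ITGAE-207 does not overlap HASPIN, whose start lies 66 bases from that of ITGAE-207. The span of ITGAE-204, at 5.31% of the mean TPM of ITGAE, covers part of HASPIN. The full-length transcript was at most 4.69 TPM in any library. Its mean went from 0.285 ± 0.0656 TPM to 2.24 ± 1.08 TPM with PMA in WT (n = 2), from 0.109 ± 0.167 to 0.560 ± 0.465 TPM in dE9 (n = 3) and from 0.362 ± 0.264 to 3.82 ± 0.948 TPM in iE9 (n = 3), groups that did not overlap in WT and iE9. In estimated counts it had 10 to 33.9 per unstimulated iE9 library and 120 to 222 per iE9 PMA library.

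At the level of the whole gene, ITGAE had no call with PMA without pairing. It stood at 37.3 and 28.9 CPM and then at 38.2 and 36.8 CPM in WT (log2 0.18 ± 0.24, adjusted p = 0.634). In dE9 it went from 28.3, 35.0 and 29.7 CPM to 26.7, 27.5 and 20.8 CPM (-0.31 ± 0.20, adjusted p = 0.256), and in iE9 from 23.9, 34.6 and 35.7 CPM to 42.3, 37.8 and 55.8 CPM. All iE9 PMA libraries were above the unstimulated ones, and this rise passed with the pairing (0.53 ± 0.15, adjusted p = 0.021) and not without it (0.53 ± 0.20, adjusted p = 0.0618). HASPIN fell in WT (log2 -1.59 ± 0.51, adjusted p = 0.0357) and dE9 (-2.53 ± 0.43, adjusted p = 0.000506), and had no call in iE9 (-0.30 ± 0.40, adjusted p = 0.622).

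Among the 9 genes with enough TPM for a test of transcript use, the share of the main transcript fell with PMA in 2, ITGAE and ITGB2, by an exact permutation test within lines over 2400 arrangements (two-sided, adjusted over the 9 genes). The test was run on these 9 genes only, so no share of all genes stands beside the count. ITGAE-207 fell by 14.86 percentage points on average over lines (p = 0.00833, adjusted p = 0.0375, exact permutation test), with -20.77 in WT, -8.68 in dE9 and -15.12 in iE9. Its dE9 and iE9 groups overlapped. ITGB2-201, the protein-coding main transcript of ITGB2, fell by 12.77 points (p = 0.005, adjusted p = 0.0375, exact permutation test), from 80.6% ± 7.78 to 69.8% ± 7.60 in WT (n = 2), 73.8% ± 7.88 to 59.7% ± 14.6 in dE9 (n = 3) and 81.3% ± 2.78 to 67.9% ± 2.52 in iE9 (n = 3). The dE9 PMA library numbered 1 had the lowest share, 42.8%, and the WT and dE9 groups overlapped. Both calls were lost without any of 5 libraries, WT unstimulated 2 or PMA 1 or dE9 unstimulated 1 or 3 or PMA 1, and the ITGAE call also without dE9 PMA 2, iE9 unstimulated 2 or 3 or iE9 PMA 1. The other 7 genes had adjusted p from 0.596 to 0.635, and between iE9 and dE9 0 of the 9 genes passed, with 0 at an unadjusted p under 0.05 by the same test over 400 arrangements.

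ITGA6 is spliced to carry 1 of 2 cytoplasmic tails. An exon of 130 bases (chr2:172501772-172501901, hg38) gives the A tail when kept, as in ITGA6-201 and the B tail when skipped. The coding part of each tail is shown from GENCODE release 29, plus strand, with the codons of the membrane-proximal motif shared by integrin alpha chains in capitals.
A tail, chr2:172501772-172501876: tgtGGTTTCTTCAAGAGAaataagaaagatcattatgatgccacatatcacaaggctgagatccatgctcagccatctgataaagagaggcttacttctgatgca
B tail, chr2:172504091-172504249: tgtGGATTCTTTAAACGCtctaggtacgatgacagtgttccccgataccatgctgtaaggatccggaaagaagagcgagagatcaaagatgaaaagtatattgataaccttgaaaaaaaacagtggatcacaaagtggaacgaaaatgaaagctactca
The coding parts are 105 and 159 bases long and differ in most of what follows the shared motif. The A tail held 58.3% and 73.3% of the TPM of both forms in unstimulated WT libraries and 67.0% and 66.8% with PMA. In dE9 it held 73.8%, 45.2% and 47.8% and then 51.2%, 74.7% and 72.5%, and in iE9 65.9%, 71.2% and 58.5% and then 51.0%, 56.8% and 52.5%. The iE9 groups did not overlap (65.2% ± 6.41 and 53.4% ± 3.03, n = 3 each), whereas dE9 libraries crossed in both directions; this share was added after the data were seen and has no test. Both forms were higher with PMA: in WT the A form went from 3.43 ± 0.324 to 26.1 ± 1.72 TPM and the B form from 1.81 ± 0.678 to 12.9 ± 0.94 TPM (n = 2).

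**Figure D4:**
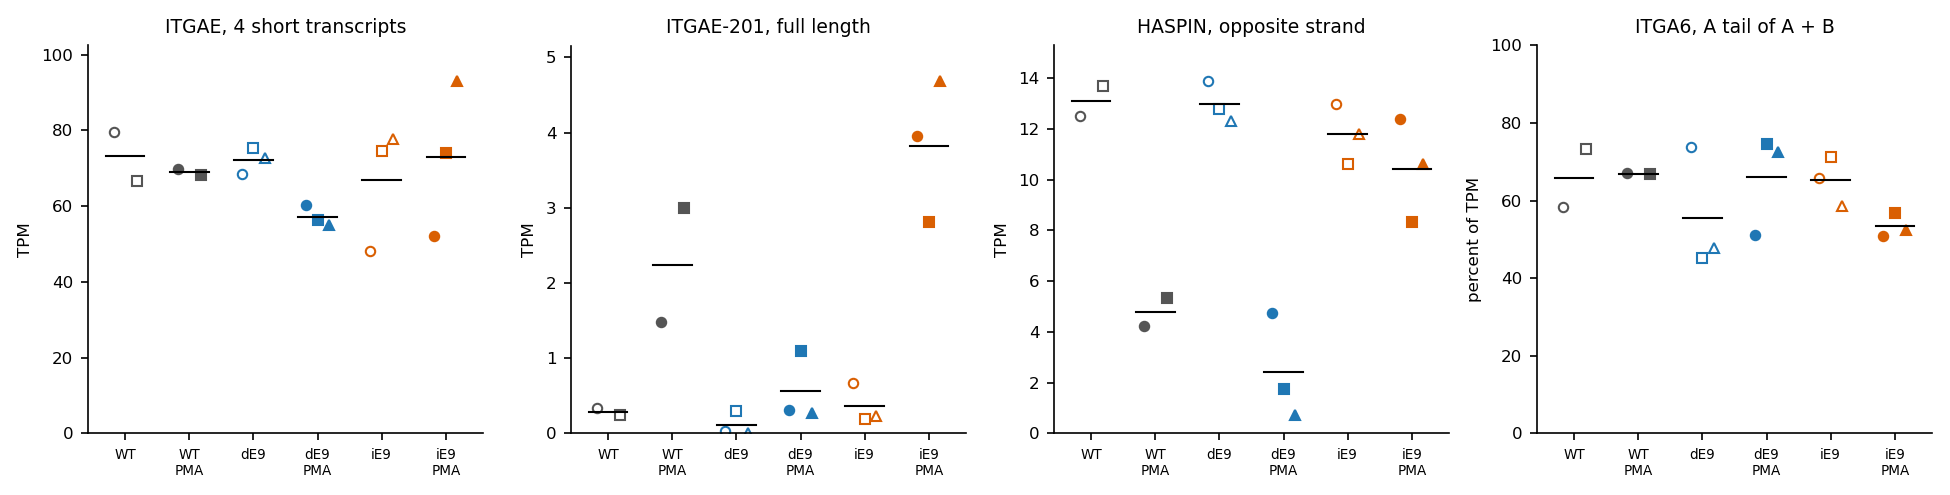
TPM of the 4 short ITGAE transcripts, of full-length ITGAE-201 and of HASPIN, and the percent of ITGA6 TPM (A plus B forms) that carries the A tail, in each of the 16 libraries (symbols as in the plot of CPM by library). Full-length ITGAE stays under 5 TPM while the short transcripts lie at 48.2 to 93.1 TPM.

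Between the edited lines, 2 of the 10 genes differed without stimulation (1.72% of all genes tested were called) and 1 differed with PMA (2.61%). DESeq2 called 3 and 2 of the 10, and 840 and 1286 genes over the whole data. In unstimulated cells ITGA5 was lower in iE9, at 4.14 to 9.05 CPM against 11.9 to 18.7 CPM in dE9 (log2 -1.42 ± 0.33, adjusted p = 0.0422), and ICAM3 was higher, at 156 to 294 CPM against 78.3 to 103 CPM (1.15 ± 0.25, adjusted p = 0.0321). Libraries of the lines did not overlap for 5 of the 10 genes (22.3% of all genes), these included, and for 2 with PMA (20.8%). With PMA the libraries of both lines overlapped in ITGA5 and ICAM3, ITGA5 differing by 0.11 ± 0.31 (adjusted p = 0.878) and ICAM3 by 0.15 ± 0.24 (adjusted p = 0.769). With PMA ITGAE was higher in iE9, at 37.8 to 55.8 CPM against 20.8 to 27.5 CPM (0.85 ± 0.20, adjusted p = 0.0368), with HASPIN higher as well (2.09 ± 0.43, adjusted p = 0.0219). These calls rest on single libraries. Each was lost without some of the 6: ITGA5 without dE9 1 or 3 or iE9 1 or 2 (adjusted p up to 0.164), ICAM3 without any dE9 library or iE9 1 (up to 0.139), and ITGAE without dE9 2 or 3 or any iE9 library (up to 0.127). Without both iE9 libraries numbered 1, ICAM3 (0.81 ± 0.14, adjusted p = 0.0246) and ITGAE (0.91 ± 0.19, adjusted p = 0.0357) were called and ITGA5 (-1.32 ± 0.32, adjusted p = 0.0944) was not.

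Compared with WT, ICAM3 was the 1 gene of the 10 called in unstimulated iE9 cells (1.38% of all genes tested), 2.76-fold higher (log2 1.46 ± 0.29, adjusted p = 0.0251). ITGA5 was lower there by a like factor, -1.42 ± 0.36, and did not pass (adjusted p = 0.0675). The ICAM3 call was lost without either WT library or iE9 1 (adjusted p up to 0.354), and stood at 1.12 ± 0.16 (adjusted p = 0.0119) without both iE9 libraries numbered 1. With PMA, 0 of the 10 genes passed between iE9 and WT by edgeR (1.12% of all genes tested), with 4 at an unadjusted p under 0.05 (14.2% of all genes). DESeq2 called 0 of the 10 there, and 698 genes over the whole data. Libraries of iE9 and WT did not overlap for 8 of the 10 genes unstimulated (39.7% of all genes) and 7 with PMA (41.2%). Among differences with PMA that did not pass were ITGAL, higher in iE9 at 103 to 201 CPM against 36.8 to 36.9 CPM (1.88 ± 0.70, adjusted p = 0.234), and ITGA4, lower at 128 to 190.3 CPM against 395 to 426 CPM (-1.40 ± 0.48, adjusted p = 0.19), as well as ITGB2 (1.86 ± 0.70, adjusted p = 0.242) and the low ITGB7 (3.23 ± 1.31, adjusted p = 0.287). Between dE9 and WT 0 of the 10 genes passed unstimulated or with PMA by edgeR (0% of all genes tested in either), with 0 and 1 at an unadjusted p under 0.05 (3.1% and 2.54% of all genes). DESeq2 called 0 of the 10 between dE9 and WT, and 20 and 9 genes over the whole data. Their libraries did not overlap for 2 (22.5% of all genes) and 4 of the 10 genes (12.9%). The iE9 comparisons with dE9 and with WT share the iE9 libraries.

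**Figure D5:**
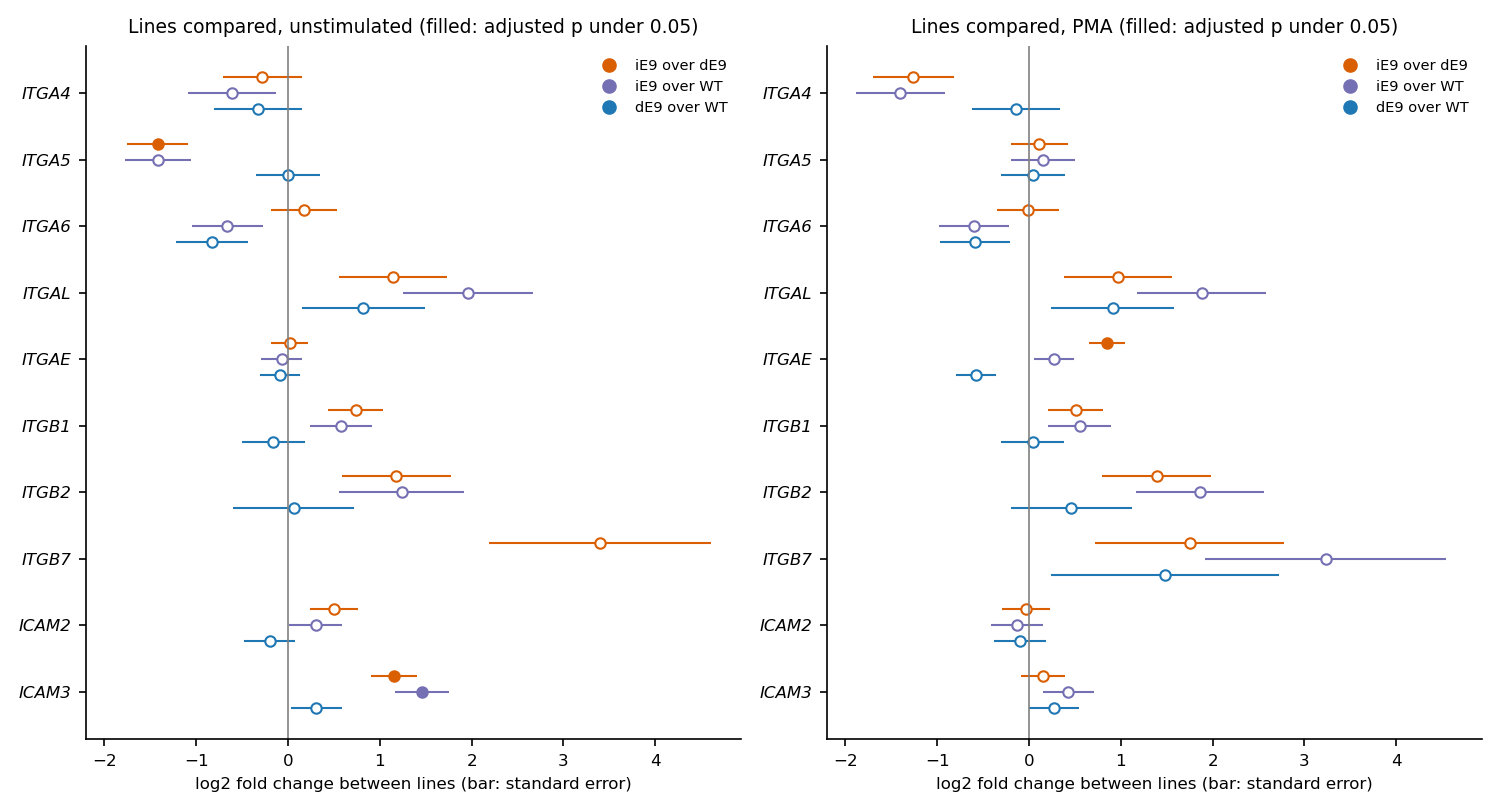
Log2 fold change between lines (bars are standard errors) for the 10 genes, unstimulated on the left and with PMA on the right, filled where the adjusted p was under 0.05. Unstimulated ITGA5 lies at -1.42 and ICAM3 above 1 for iE9, and the dE9 over WT values hold no filled point. ITGB7 over unstimulated WT is not drawn, since that group had 0 counts.

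Other values moved with the iE9 libraries. The 4 B cell markers, all in the files, summed to 52.1 to 183 TPM in unstimulated and 304 to 538 TPM in PMA-treated iE9 libraries, against 16.7 to 28.6 and 45.6 to 82.1 TPM in WT and 8.88 to 33.2 and 12.3 to 202 TPM in dE9. CD79A made up nearly all of this, while MS4A1 was at 0 in 12 libraries and PAX5 in 9 and neither passed 1.18 TPM. The 4 fibroblast or endothelial markers summed to 45.9 to 75.4 TPM in PMA-treated iE9 libraries, against 19.2 to 23.4 TPM in WT and 16 to 49.7 TPM in dE9. Without PMA they summed to 13.4 to 22.5, 13.1 to 16.9 and 8.19 to 19.2 TPM. PECAM1 made up most of the high sums, at up to 69.6 TPM. COL1A1, COL3A1 and VWF were at most 7.73, 2.43 and 0.0243 TPM in any library. HDAC7 itself was at 168 ± 37.4 CPM in unstimulated iE9 libraries (n = 3), against 51.9 ± 8.76 CPM in WT (n = 2) and 53.1 ± 6.18 CPM in dE9 (n = 3), and at 351 ± 47.2, 241 ± 4.62 and 188 ± 54.5 CPM with PMA. The part of these values in the differences of ITGA5, ICAM3 and ITGAE was not tested.

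In the fit without pairing, the response to PMA passed no test of difference between lines for any of the 10 genes by edgeR's interaction test, with 3 genes (iE9 minus dE9), 2 genes (iE9 minus WT) and 0 genes (dE9 minus WT) at an unadjusted p under 0.05 (6.86%, 5.65% and 1.56% of all genes). By edgeR 0% of all genes tested were called in each. DESeq2 called 0 of the 10, and 116, 53 and 1 genes over the whole data. The ICAM3 difference between iE9 and dE9 passed with the pairing, as given above, and with no filter on low counts the ITGA5 difference passed for iE9 minus dE9 (adjusted p = 0.00186) and for iE9 minus WT (adjusted p = 0.012). ITGAE differed by 0.84 ± 0.28 (iE9 minus dE9, adjusted p = 0.53) and ITGB7, at its low counts, by -1.65 ± 1.54 (adjusted p = 0.902).

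The other genes of the adhesion pathway were described by lists, with no enrichment test. The counts below stand beside 11.1%, 17.1% and 12.6% of all genes called higher and 11.3%, 16.5% and 14.4% called lower with PMA in WT, dE9 and iE9, and all-gene medians of 0.03, 0.06 and -0.01. Of the 18 further integrin subunits 10 could be tested, and with PMA 1 rose in WT, 2 rose and 1 fell in dE9 and 4 rose in iE9, with medians of 0.55, 0.42 and 0.55 on the log2 scale. ITGA3, a laminin-binding alpha chain, rose in all lines (log2 1.31 ± 0.39, 1.03 ± 0.31 and 1.47 ± 0.32, adjusted p = 0.0252, 0.0195 and 0.0033). ITGA1, of a collagen receptor, rose in dE9 (3.69 ± 1.03, adjusted p = 0.0124) and iE9 (3.28 ± 1.01, adjusted p = 0.0254). It was low, at 0.663 ± 0.496 and then 8.71 ± 12.8 CPM in dE9, an SD above the mean. In iE9 it went from 0.897 ± 0.603 to 8.82 ± 4.14 CPM. WT moved alike, from 1.03 ± 0.222 to 8.35 ± 2.41 CPM, without a call. ITGB3 fell in dE9 (-2.10 ± 0.40, adjusted p = 0.00118) and was higher in iE9 than in dE9 with PMA (2.0 ± 0.40, adjusted p = 0.0201). Of 16 further ICAMs and integrin ligands 11 could be tested and 2 rose in dE9 and 1 in iE9, among them the laminin chain LAMB1 in dE9 (1.06 ± 0.28, adjusted p = 0.00967) and iE9 (1.57 ± 0.28, adjusted p = 0.00115). ICAM1, the inducible LFA-1 ligand, stayed low, at 4.71 ± 1.74 CPM in iE9 with PMA, and was called in dE9 (2.31 ± 0.66, adjusted p = 0.0142). Its means were also higher with PMA in WT (1.34 and then 4.01 CPM) and iE9 (from 1.48 CPM), without a call.

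Of 27 genes of the machinery that opens integrins from inside the cell, all tested, 9 were called higher and 1 lower in WT, 10 and 1 in dE9 and 10 and 1 in iE9 (all genes 11.1% and 11.3%, 17.1% and 16.5%, and 12.6% and 14.4%), with medians of 0.51, 0.51 and 0.61. SKAP1, an adaptor between the T cell receptor and LFA-1, rose 6.78-fold in WT, 7.47-fold in dE9 and 3.71-fold in iE9 (adjusted p = 0.00327, 0.00029 and 0.00531). FERMT3, the kindlin of blood cells that binds beta tails, rose from 71.1 to 179 CPM in WT (adjusted p = 0.002) and from 95.6 to 189 CPM in dE9 (adjusted p = 0.00175). It was also called higher in iE9, from 134 to 219 CPM. CYTIP, which restrains the LFA-1 activator cytohesin-1, rose in all 3 lines. The rise was 45.5-fold in WT from 1.58 CPM, 27.9-fold in dE9 from 3.41 CPM and 10-fold in iE9 from 19.1 CPM (adjusted p = 0.00409, 0.000867 and 0.00689). ITGB1BP1, which binds the ITGB1 tail and holds it inactive, fell by a log2 of -1.05 ± 0.33, -1.18 ± 0.27 and -1.15 ± 0.27 in WT, dE9 and iE9 (adjusted p = 0.0314, 0.00357 and 0.00542). The list therefore holds positive and negative regulators that rose.

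Of 30 adhesion adaptors and kinases 26 could be tested, with 11 higher in each line and 2, 3 and 4 lower in WT, dE9 and iE9 (all genes 11.1%, 17.1% and 12.6% higher and 11.3%, 16.5% and 14.4% lower). ZYX, a focal adhesion protein, rose 10.1-fold in WT, 7.85-fold in dE9 and 3.55-fold in iE9, and PARVG, the leukocyte parvin, rose 5.46-fold, 5.29-fold and 2.57-fold. The kinase PTK2B rose by nearly one factor, 6.03-fold, 5.81-fold and 5.71-fold, and was higher in iE9 than in dE9 both unstimulated (2.15-fold, adjusted p = 0.00839) and with PMA (2.12-fold, adjusted p = 0.00885). CRK and RDX fell in all 3 lines, by log2 -1.01 and -1.15 in WT.

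Among 15 membrane partners of integrins 5, 6 and 5 rose in WT, dE9 and iE9 and 0, 0 and 1 fell, beside the same shares of all genes. The tetraspanin CD82 rose 10-fold in WT, 11.5-fold in dE9 and 5.67-fold in iE9 and was lower in iE9 than in dE9 with PMA, at 112 ± 26.8 against 274 ± 103 CPM (log2 -1.29 ± 0.26, adjusted p = 0.0219). CD226, which associates with LFA-1, rose 15.6-fold, 7.26-fold and 9.79-fold. SELPLG, the selectin ligand, fell in iE9 (-2.11 ± 0.53, adjusted p = 0.00874). Its means were also lower with PMA in WT (81.4 and then 30.6 CPM) and dE9 (68.6 and then 30.7 CPM), without a call. CD9, a tetraspanin, was lower in iE9 than in dE9 without stimulation, at 0.336 ± 0.112 against 8.90 ± 4.06 CPM (-4.67 ± 1.04, adjusted p = 0.0369).

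The pattern over the 6 groups was compared with that of 10871 genes for the alpha chain, beta chain and ICAM of widest range, by the root mean square difference of centred group means in log2 CPM. Closest to ITGA6 were TNFAIP3 (0.225), LPCAT2 (0.230) and SH3RF3 (0.231), over a range of 3.83 for ITGA6. Closest to ITGB7 were IL12RB1 (0.172), CASP4 (0.5) and KCNMB1 (0.517), and closest to ICAM3 were ISG20 (0.091), FLJ20021 (0.106) and PCSK4 (0.121). The ITGB7 range of 5.24 includes unstimulated WT, which had 0 counts. Its log2 value there is set by the prior count of 2 added before the log, so the ITGB7 pattern is uncertain. These likenesses are descriptions over 6 group means.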

How the data were processed

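Polyadenylated RNA was sequenced for 16 libraries. The submitters' processing notes name Salmon, DESeq2 and the build hg38. Tool versions and library strand: not given in the sources used here. The authors deposited estimated counts (expected counts) and TPM for each transcript, per the file headers, and a gene table of TPM, whose 16 columns matched the gene sums of the transcript TPM. All 205870 transcripts matched GENCODE release 29.

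Per gene, the estimated counts were added up and then rounded to whole numbers, and 18073 of 33306 genes with a count passed filterByExpr. Genes were tested with the quasi-likelihood F test of edgeR 4.0.16 (R 4.3.3, two-sided, TMM, all 16 libraries, 1 coefficient per group) in 12 comparisons, and p-values were adjusted by Benjamini-Hochberg over all genes tested in each. CPM are TMM-scaled. The common biological coefficient of variation was 31.8%. No replicates agreed within sampling noise (lowest chi-square per degree of freedom 7.55). Floors cover counting error only. The steps were tested on simulated data. For PMA in iE9, 36.7% of simulated 2-fold rises and 39.1% of 2-fold falls were called. For 4-fold rises and falls it was 96.4% and 85.7%. A change that did not pass is therefore not shown to be absent.

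Same-numbered unstimulated and PMA libraries deviated together in dE9 (correlations over genes of 0.297, 0.305 and 0.24) and iE9 (0.441, 0.226 and 0.19), all above 0.1, and were taken as paired there. The labels do not state the pairing, which was read from these same data. In iE9, unstimulated library 2 also correlated with PMA library 3 (0.153), and 3 with 2 (0.0848). Libraries 2 and 3 of iE9 were thus only weakly told apart. The other pairs of unlike number in dE9 and iE9 had negative correlations. Deviations from a group mean sum to 0, so positive values for same-numbered pairs bring negative ones elsewhere. The negative values thus add no support for the pairing. Calls that passed only with the pairing depend on it. The paired fit also held number terms for WT, where same-numbered libraries correlated at 0.073 only.

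The members and the gene lists were chosen with earlier results of these data known. All members are named in the comparisons, and from each list genes among up to 4 called per direction with the smallest adjusted p. Genes of like pattern were the 3 closest with a mean of at least 5 CPM. Transcript use was tested for genes of at least 5 TPM with a second transcript of at least 1 TPM. Alternatives were DESeq2 1.42.0, its size factors (RLE), no filter, the replicate number as a block, fitting only the groups compared, and leaving out libraries. Estimated counts in place of TPM, for the ITGAE and ITGA6 shares, were added after seeing the data. Promoter windows come from RefSeq (GRCh38.p14) and printed sequences from GENCODE release 29 transcripts. One marker gene and 1 sequence are not reported here.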

Additional observations from a re-analysis of the deposited data

Results flagged for a closer look

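In 3 cases every numbered library pair of a line moved one way with PMA and every pair of another line moved the opposite way. The ITGAE response in iE9 minus that in dE9 was 0.84 on the log2 scale, with ratios of PMA to unstimulated CPM of 1.76, 1.09 and 1.56 in iE9 and 0.944, 0.788 and 0.702 in dE9. The ITGAE response in dE9 minus that in WT was -0.49, with WT ratios of 1.03 and 1.27. The WT numbers do not pair the libraries, and the WT groups overlapped (37.3 and 28.9 CPM, then 38.2 and 36.8 CPM), so this case rests on a pairing that the data do not bear out. The ITGA4 response in iE9 minus that in WT was -0.79, with ratios of 0.648, 0.651 and 0.623 in iE9 and 1.06 and 1.16 in WT. Both WT libraries with PMA were above both without, whichever way they are paired. The interaction test of edgeR did not pass for any of the 3 (adjusted p = 0.53, 1.0 and 1.0, in that order).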

How the results depend on the processing

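The number of the 10 genes called depended on how the spread was estimated. In WT with PMA the count went from 3 to 5 with no low-count filter and to 6 when only the WT libraries were fitted, and leaving out 1 library gave 2 each time. In dE9 it ranged from 3 to 5 and in iE9 from 2 to 5 over the libraries left out. Between iE9 and dE9 unstimulated, 2 calls became 6 with no filter, 0 with only those groups, 1 without both iE9 libraries numbered 1, and 0 to 2 over the libraries left out. With PMA, 1 call became 5 with no filter, 2 with DESeq2, 0 with only those groups, and 0 to 1 over the libraries left out. Against WT, 1 unstimulated iE9 call became 5 with no filter, 3 with DESeq2, and 0 to 2 over the libraries left out, and 0 calls with PMA became 4 with no filter and 2 with only those groups. With no filter, 1 call each appeared for dE9 against WT with PMA and for the iE9 minus dE9 and iE9 minus WT responses. Transcript share calls with PMA ranged from 0 to 2 over the libraries left out.

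With the replicate number as a block within each line, the pairing gave 6 calls in WT (where same-numbered libraries correlated at 0.073 only), 7 in dE9, 8 in iE9, and 1 for the iE9 minus dE9 response, where 36.5%, 45.2%, 39.8% and 0.338% of all genes tested were called. With 1 block shared by all lines, iE9 against dE9 with PMA had 0 calls and unstimulated iE9 against WT had 3. Between lines, same-numbered libraries correlated from -0.0526 to 0.12, so the shared number pairs nothing there.

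Over all genes, counts of calls moved by over 1.5 times as well. In WT with PMA 4038 calls became 6590 with the block within lines, 8284 with only the WT libraries, and 1419 to 1904 with 1 library left out. Between iE9 and dE9, 311 unstimulated calls became 1319 with no filter, 840 with DESeq2 and 161 with only those groups, and 471 PMA calls became 1801, 1286 and 47. Leaving out 1 library gave 113 to 1035 of the latter. Against WT, 249 unstimulated iE9 calls became 1220 with no filter and 800 with DESeq2, and 203 PMA calls became 1162, 698 and, with only those groups, 665; single libraries left out lowered them to 18 and 24. For dE9 against WT, 0 calls became 132 and 20 unstimulated and 159 and 9 with PMA (no filter and DESeq2), and 174 without dE9 PMA 1. For the responses, 0 calls became 480 and 116 (iE9 minus dE9), 292 and 53 (iE9 minus WT) and 49 and 1 (dE9 minus WT), and 460 for iE9 minus dE9 without dE9 PMA 1. Without both iE9 libraries numbered 1, the iE9 counts were 152 against dE9 unstimulated and 99 and 84 against WT. Estimated counts in place of TPM lowered the share of short ITGAE transcripts to 60.9% in iE9 with PMA and 70.9% in WT with PMA. ITGB7, with 0 to 18 counts in WT libraries, is limited by depth.

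No called value changed direction under any alternative run, whereas 50 values that were not called did under at least 1 alternative, and 0 of the reversed values were called. Over the libraries left out, log2 differences crossed 0 as follows. For PMA in dE9 the ranges were ITGA4 from -0.34 to 0.9 and ICAM2 from -0.01 to 0.43. For PMA in iE9 the range was from -0.16 to 2.36 for ITGB7. Between unstimulated iE9 and dE9 the ranges were ITGA4 from -0.65 to 0.28, ITGA6 from -0.2 to 0.8 and ITGAE from -0.08 to 0.18. Between iE9 and dE9 with PMA the ranges were ITGA5 from -0.29 to 0.32, ITGA6 from -0.2 to 0.27, ICAM2 from -0.3 to 0.27 and ICAM3 from -0.11 to 0.28. Between unstimulated iE9 and WT the range was from -0.25 to 0.11 for ITGAE. Between iE9 and WT with PMA the ranges were ITGA5 from -0.25 to 0.36 and ICAM2 from -0.4 to 0.07. Between unstimulated dE9 and WT the ranges were ITGA4 from -0.89 to 0.04, ITGA5 from -0.09 to 0.19, ITGAE from -0.25 to 0.11 and ITGB2 from -0.52 to 0.52. Between dE9 and WT with PMA the ranges were ITGA4 from -0.81 to 0.16, ITGA5 from -0.13 to 0.22, ITGB1 from -0.2 to 0.2, ITGB2 from -0.11 to 0.84 and ICAM2 from -0.38 to 0.09. For the iE9 minus dE9 response the ranges were ITGA6 from -0.81 to 0.19, ITGAL from -0.61 to 0.35, ITGB1 from -0.53 to 0.25 and ITGB2 from -0.44 to 0.8. For the iE9 minus WT response the ranges were ITGA6 from -0.11 to 0.17, ITGAL from -0.48 to 0.28, ITGB1 from -0.33 to 0.46 and ITGB2 from -0.04 to 1.07. For the dE9 minus WT response the ranges were ITGA4 from -0.48 to 0.75, ITGA5 from -0.15 to 0.2, ITGA6 from -0.12 to 0.87, ITGAL from -0.43 to 0.52, ITGB1 from -0.04 to 0.35, ITGB2 from -0.18 to 0.98, ICAM2 from -0.19 to 0.3 and ICAM3 from -0.21 to 0.12. For the main transcript share with PMA, in percentage points, the ranges were ICAM3 from -0.61 to 2.82, ITGAL from -6.33 to 0.14 and ICAM2 from -0.58 to 5.87. For that share in iE9 minus dE9 the ranges were ITGA5 from -5.96 to 4.76, ICAM3 from -1.19 to 1.31, ITGA6 from -6.84 to 0.91, ITGA4 from -0.86 to 4.63 and ICAM2 from -0.55 to 2.96. Without both iE9 libraries numbered 1, ITGA5 was -0.28 (iE9 over dE9 with PMA), ITGA6 was 0.0 (iE9 over dE9 with PMA), ICAM3 was -0.11 (iE9 over dE9 with PMA), ITGAE was 0.09 (unstimulated iE9 over WT), ITGA5 was -0.25 (iE9 over WT with PMA) and ITGB1 was 0.16 (iE9 minus WT response). With the replicate number as 1 shared block, ITGA5 was -0.16 (unstimulated dE9 over WT), ITGA5 was -0.09 (dE9 over WT with PMA) and ICAM2 was 0.01 (dE9 over WT with PMA). With the replicate block within lines, ITGB1 was 0.03 (iE9 minus WT response). With estimated counts in place of TPM, ITGB1 was -0.59 (main transcript share with PMA), ITGA5 was 0.7 (main transcript share in iE9 minus dE9) and ITGAL was 10.1 (main transcript share in iE9 minus dE9). With protein-coding transcripts only, ITGA5 was -6.31 (main transcript share with PMA), ITGA6 was 0.19 (main transcript share with PMA), ICAM3 was -1.08 (main transcript share with PMA), ITGA5 was 23.4 (main transcript share in iE9 minus dE9), ITGAL was 14.09 (main transcript share in iE9 minus dE9) and ICAM3 was -0.34 (main transcript share in iE9 minus dE9). The cause was not tested.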
